A study of Mus musculus with 12 samples.

Results

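Interferon-stimulated genes are the genes that a cell switches on after it senses interferon, and 46 of them were followed here in the RNA of mouse ear fibroblasts grown on soft gels. The 46 were taken by name from a list of known members of this response, not by their values, and all 46 were found among the 33246 genes of the deposited count table. Of these, 45 had enough counts to be tested among 14542 tested genes in all. The gene left out was Mx1.

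The fibroblasts came from ears of 1-month-old mice, were used at passage 2, were seeded at 500000 cells and were collected after 48 h. The methods name C57BL/6 mice of both sexes and Tau-EGFP reporter mice as sources of ear fibroblasts, without stating which of them gave the RNA-seq cells. All 12 libraries were made from polyA RNA of cells on alginate gels carrying RGD peptide, in 4 groups of 3 biological replicates: 2 kPa elastic, 20 kPa elastic, 2 kPa viscoelastic and 20 kPa viscoelastic. Elastic gels were crosslinked covalently and viscoelastic gels ionically with calcium, which lets them relax slowly under load. The labels name no interferon or virus treatment. The design crosses gel type with stiffness, so that the effect of each can be compared at both levels of the other.

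Type I interferon binds a receptor of the chains Ifnar1 and Ifnar2, whose kinases Jak1 and Tyk2 activate STAT proteins. Stat2 then joins Irf9 in the complex ISGF3, which binds the interferon-stimulated response element (ISRE) before many antiviral genes. Fibroblasts are a classical source of interferon beta, and in untreated cells a low level of many of these genes is kept up by small amounts of interferon. Because the RNA is of whole cultures, fewer cells that use a gene and less of its RNA per cell cannot be told apart.

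The promoters of 37 members were present in a RefSeq table of GRCm38.p6 (250 bases before and 50 after each gene's start). The table had no entry for Dhx58, Zbp1, Oas2, Mx1, Mx2, Usp18, Iigp1, Ifi27 and Rtp4. The ISRE core was searched as GAAA, any 2 bases and GAAA on both strands with overlapping matches allowed. It was present in the windows of 18 of the 37 (48.6%) and of 3.99% of all 27025 genes of the table. In Ifih1, Eif2ak2 and Ifitm3 it lay only after the start. The gamma-activated site of interferon gamma signalling, searched as TTCNNNGAA, was present in the windows of 11 of the 37 (29.7%) and of 9.55% of all genes. The stretches below are shown because their genes carry the results that follow. Isg15, Ifit1, Ifit3 and Ifit3b rose and fell together from library to library, and Rsad2, Ifitm2 and Ifit2 were called between gels, although Rsad2 varied with the other members too (r = 0.804 within groups). They end at the start of the gene in RefSeq or, where that lies further upstream, in GENCODE, and capitals mark the ISRE core on either strand.
Isg15, chr4:156200819-156201018, minus strand: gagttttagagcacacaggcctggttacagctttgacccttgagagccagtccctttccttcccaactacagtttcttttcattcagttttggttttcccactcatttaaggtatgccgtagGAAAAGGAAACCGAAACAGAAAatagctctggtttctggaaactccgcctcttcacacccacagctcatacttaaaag
Ifit1, chr19:34640689-34640870, plus strand: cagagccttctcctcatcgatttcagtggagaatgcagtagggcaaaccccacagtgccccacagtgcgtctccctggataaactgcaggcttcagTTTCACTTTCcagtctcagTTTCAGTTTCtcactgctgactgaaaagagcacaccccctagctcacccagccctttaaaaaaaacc
Ifit3, chr19:34583329-34583528, plus strand: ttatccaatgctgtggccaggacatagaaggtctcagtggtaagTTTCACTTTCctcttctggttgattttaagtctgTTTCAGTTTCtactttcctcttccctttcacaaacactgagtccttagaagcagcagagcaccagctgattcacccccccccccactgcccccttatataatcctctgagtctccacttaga
Ifit3b, chr19:34607757-34607956, plus strand: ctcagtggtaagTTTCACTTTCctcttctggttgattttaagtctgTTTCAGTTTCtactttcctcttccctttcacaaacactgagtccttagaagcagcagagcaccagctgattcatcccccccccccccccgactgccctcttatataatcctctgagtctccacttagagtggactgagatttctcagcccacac
Rsad2, chr12:26456453-26456652, minus strand: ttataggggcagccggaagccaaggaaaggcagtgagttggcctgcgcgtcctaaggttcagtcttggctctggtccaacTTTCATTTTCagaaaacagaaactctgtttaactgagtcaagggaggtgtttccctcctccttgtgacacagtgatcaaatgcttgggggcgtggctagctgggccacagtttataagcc
Ifitm2, chr7:140955988-140956161, minus strand: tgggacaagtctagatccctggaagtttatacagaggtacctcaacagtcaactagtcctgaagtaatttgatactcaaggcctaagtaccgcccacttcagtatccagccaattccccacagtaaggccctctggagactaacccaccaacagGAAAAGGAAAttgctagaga
Ifit2, chr19:34550494-34550693, plus strand: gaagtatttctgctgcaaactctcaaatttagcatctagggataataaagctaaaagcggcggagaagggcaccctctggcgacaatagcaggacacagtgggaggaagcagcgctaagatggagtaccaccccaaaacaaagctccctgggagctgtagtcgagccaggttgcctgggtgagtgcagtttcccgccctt
Isg15 holds 3 overlapping cores 66 to 78 bases before its start. Ifit1, Ifit3 and Ifit3b hold a pair each on the opposite strand, and these pairs have the same letters in all 3 genes. Rsad2 and Ifitm2 hold 1 core each, and the stretch before Ifit2 holds none of these letters. Over the tested members, the median spread within groups (SD of log2 CPM, counts scaled to a common library size) was 0.301 for the 18 genes with a core and 0.206 for the 19 without, with ranges of 0.0858 to 0.884 and 0.0598 to 0.807 that overlapped widely.

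Counts on genes ran from 36626221 to 43612804 per library, and the 46 members together took 0.0974% to 0.157% of them. The cells carried the fibroblast markers, with all 10 of the list tested (Col1a1, Col3a1 and Pdgfra among them) and 23733 to 29275 CPM in sum. Cartilage markers were present too: all 6 were tested, and Col2a1 lay between 2396 and 3471 CPM. Of 14 leukocyte markers, 4 were tested. The summed level of all 14 was 5.67 to 7.27 CPM on 2-kPa elastic and 6.82 to 7.40 on 20-kPa elastic gels. On viscoelastic gels the sum was 6.64 to 8.0 CPM at 2 kPa and 5.64 to 7.06 at 20 kPa. The pan-leukocyte gene Ptprc reached at most 0.592 CPM, Itgam at most 2 counts, and Siglech, which marks plasmacytoid dendritic cells, had no count. Others of the list were detected in every library: Cd14 at 3.11 to 4.83, Lyz2 at 0.769 to 2.07 and Csf1r at 0.643 to 1.25 CPM.

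Among the members, levels per kilobase of exon spanned from 321 CPM per kb for Ifitm3 to 0.0223 for Mx1. Ifitm3 and Ifitm2, small membrane proteins that hinder virus entry, led with 321 and 226 CPM per kb. They were followed by the secreted glycoprotein Lgals3bp with 67.1, the mitochondrial protein gene Ifi27 with 53.1 and Bst2, a tether that holds budding virions at the cell surface, with 14.3. The genes best known as readouts of an interferon response stood far lower: Ifit1 at 3.65, Isg15 at 4.49, Oas2 at 0.0428 and Rsad2 at 0.0801 CPM per kb. Part of the sequence of some members is found in other genes, so that their reads could be split or lost. Of the stretches of 50 bases in their transcripts, 57.6% were shared with another gene for Oas1a, 51.2% for Ifit3, 48.5% for Ifitm2 and 45% for Ifit3b, against 10.0% for Ifitm3, 1.76% for Samhd1 and none for Ifit2, Rsad2 and Lgals3bp.

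Before any gel was compared with another, the libraries of one gel already differed. In each group the interferon-stimulated genes were high together in 1 library. On 2-kPa elastic gels this was replicate 1, where 39 of the 45 tested members had their highest level, against 35.1% of all tested genes. On 20-kPa elastic gels it was again replicate 1, with 42 of 45 members against 35.4% of all genes. On 2-kPa viscoelastic gels replicate 2 was highest for 37 of 45 members against 38.9% of all genes. On 20-kPa viscoelastic gels replicate 2 was highest for all 45 tested members, against 33.6% of all genes. In total 33 of 45 members (73.3%) peaked in these same 4 libraries, compared with 3.51% of all tested genes, and the number was 33 as well with total counts alone or DESeq2 size factors. The libraries were picked by the members' own values, so these shares describe the pattern and test nothing.

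**Figure D1:**
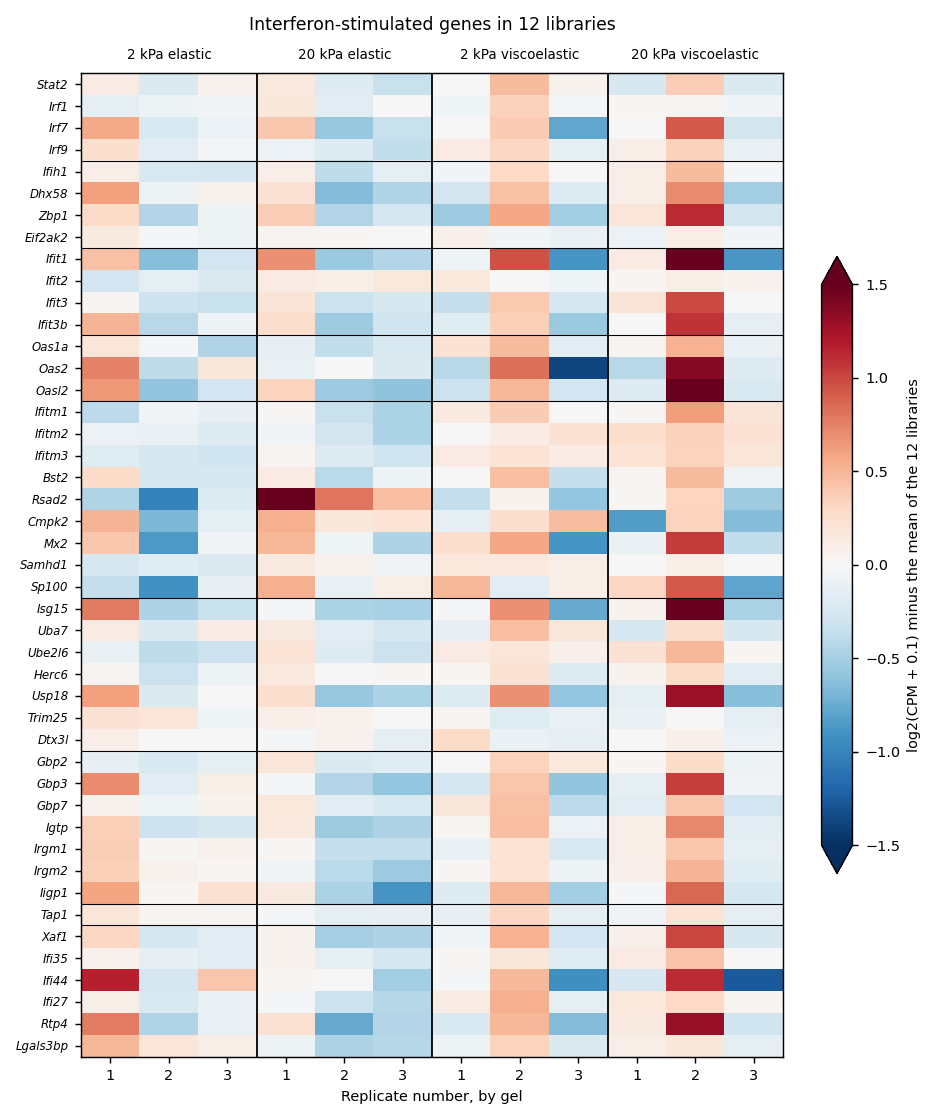
Each row is 1 of the 45 tested members, grouped by role, and each column is 1 of the 12 libraries. Colour gives log2(CPM + 0.1) minus the gene's mean over the 12 libraries, cut at 1.5 either way. Most rows turn red together in replicate 1 of both elastic groups and in replicate 2 of both viscoelastic groups.

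**Figure D2:**
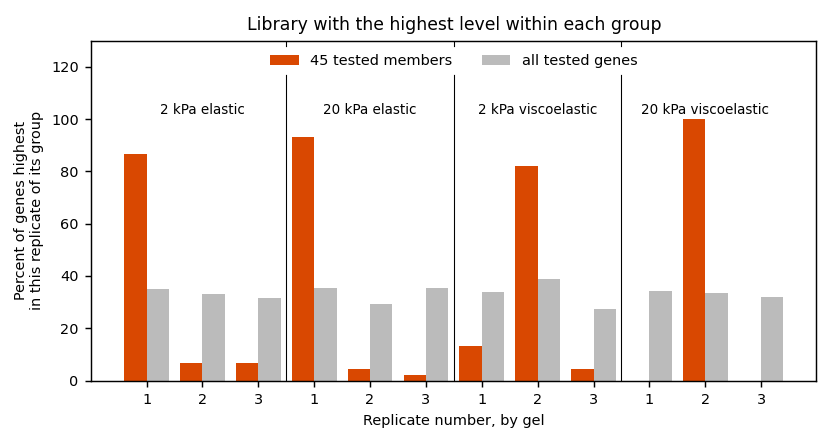
Bars give the percent of the 45 tested members (orange) and of all tested genes (grey) whose highest level in a group lies in that replicate. The tallest orange bars stand at 86.7%, 93.3%, 82.2% and 100%, whereas the grey bars lie between 27.3% and 38.9%.

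Averaged over the 45 members, the log2 level relative to each gene's mean was 0.247, -0.269 and -0.0890 in replicates 1 to 3 on 2-kPa elastic gels. It was 0.179, -0.250 and -0.276 on 20-kPa elastic gels. Viscoelastic gels of 2 kPa gave -0.0370, 0.359 and -0.286, and those of 20 kPa -0.00357, 0.649 and -0.225. Every group thus held libraries above and below the genes' means, and the 4 groups overlapped. Within-group ranges were 0.516, 0.454, 0.645 and 0.874 in the same order, all wider than the 0.256 between the lowest and the highest group mean.

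**Figure D3:**
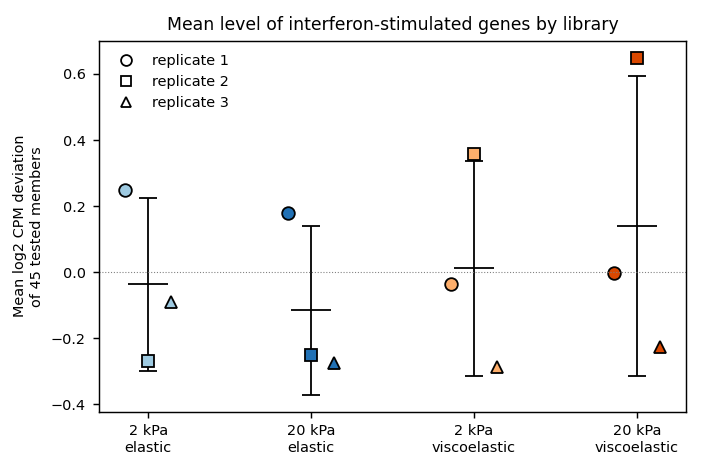
Points give the mean log2 CPM deviation of the 45 tested members in each library, and bars give the mean and SD of the 3 replicates of each gel. The highest point, 0.649, is replicate 2 on 20-kPa viscoelastic gels, and the 4 groups overlap.

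The spread differed between members, from an SD of log2 CPM within groups of 0.0598 for Samhd1 and 0.0727 for Ifit2 to 0.884 for Ifit1 and 1.02 for Oas2. Isg15 encodes a ubiquitin-like protein that is conjugated to other proteins, and Usp18 encodes the protease that removes it and also dampens the interferon receptor. Isg15 measured 5.24, 2.15 and 2.36 CPM on 2-kPa elastic, 2.94, 2.14 and 2.12 on 20-kPa elastic, 2.94, 4.90 and 1.74 on 2-kPa viscoelastic, and 3.14, 8.88 and 2.13 on 20-kPa viscoelastic gels. Usp18 measured 5.52, 3.06 and 3.57, then 4.23, 2.37 and 2.54, then 3.08, 5.81 and 2.36, and lastly 3.23, 8.92 and 2.26 CPM in the same order of groups. In both genes the high libraries were the same 4, and no pair of groups was separated. Ifit1, whose protein binds viral RNA ends, measured 11.5, 5.36 and 6.89 CPM on 2-kPa elastic and 13.6, 5.68 and 6.16 on 20-kPa elastic gels. On viscoelastic gels it measured 8.06, 16.4 and 4.51 CPM at 2 kPa and 9.13, 24.6 and 4.54 at 20 kPa. Replicate 2 on 20-kPa viscoelastic gels exceeded the mean of its sister libraries by a median of 1.5-fold over the members, by more than 2-fold in 16 of 45, and by 5.16-fold in Oas2, an activator of RNA degradation that rested on 0 to 24 counts.

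The deviations from the group means were correlated between members. The mean pairwise Pearson r was 0.671 over the 12 libraries, against 0.00278 over all tested genes. With the deviations of the 2 libraries farthest from the median left out, both of them replicate 2 on viscoelastic gels, r was 0.608. The group means still included these 2 libraries, so the deviations of the other viscoelastic libraries depended on them. The value of 0.608 is therefore not the correlation free of these 2 libraries. Of the 45 members, 41 had r over 0.5 with the mean of the others. Xaf1, a pro-apoptotic protein, stood highest with 0.993, followed by Usp18 with 0.990, Ifit1 with 0.985, Ifit3b with 0.982 and Rtp4, a receptor transporter, with 0.981. Ifit2 was the lone member with a negative value, -0.0324, although it neighbours Ifit1, Ifit3 and Ifit3b on chromosome 19 (mm10, 34550694-34576419). The ligases Trim25 and Dtx3l had 0.256 and 0.271.

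The spread between replicates was accordingly large for these genes. Their median SD of log2 CPM within groups was 0.30, against 0.113 for all tested genes, and 40 of 45 lay above that value. Their median biological coefficient of variation, the spread beyond counting noise, was 14.7% against 7.22%. The groups held a median of 28.0% of a member's variance, against 59.7% for all tested genes, and 8 of 45 members (17.8%) had more variance between than within groups, against 62.6% of all. In 39 of 45 members the widest range inside a group exceeded the range of the 4 group means, which held for 55.1% of all tested genes. The 6 others were Ifit2, Ifitm2, Ifitm3, Rsad2, Samhd1 and Lgals3bp.

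The share of mitochondrial counts was also highest in replicate 2 on both viscoelastic gels, with 2.97% and 3.34%, but on elastic gels it was highest in replicate 3, with 2.38% and 2.48%. Its deviations from the group means had r = 0.638 with those of the members over the 12 libraries. The same r was 0.603 for the summed fibroblast markers, 0.337 for the leukocyte markers, -0.359 for the cartilage markers and 0.299 for total counts. The part of these in the shared variation was not tested, and the labels name no batch. Each comparison below was therefore also fitted without each library in turn.

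At 2 kPa, 4 of the 45 members (8.89%) rose on viscoelastic relative to elastic gels and 0 fell by edgeR's quasi-likelihood test, whereas 19.9% of all tested genes were called (8.77% higher, 11.1% lower). With total counts as the scale, calls over all genes split into 1675 higher and 1258 lower in place of 1275 and 1617. Ifitm3, Samhd1, Gbp2 and Ifit2 rose by 1.19- to 1.31-fold. At an unadjusted p under 0.05 there were 6 higher and 1 lower, against 34.2% of all tested genes. DESeq2 called 6 members higher and 0 lower, where it called 1441 of 14542 tested genes higher and 1704 lower. The members' median log2 fold change was 0.116, with 26 positive and 19 negative, and single libraries turned it. It was -0.104 with 18 positive without 2-kPa viscoelastic replicate 2, 0.227 with 39 positive without 2-kPa elastic replicate 1, 0.193 with 37 positive without 2-kPa viscoelastic replicate 3, 0.061 without 2-kPa elastic replicate 3 and 0.00031 without 2-kPa elastic replicate 2. Most members showed no separation: the groups did not overlap in 7 of 45, against 36.3% of all tested genes.

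At 20 kPa, 5 of 45 members were higher on viscoelastic gels and 1 was lower, against 33.5% of all tested genes called (17.4% higher, 16.1% lower). Ifitm1, Ifitm2, Ifitm3, Ifi27 and Irgm2 rose, and Rsad2 fell. At an unadjusted p under 0.05 there were 15 members higher and 1 lower, against 44.1% of all tested genes. As many as 39 of 45 fold changes were positive, with a median of 0.36 on the log2 scale against 0.016 over all tested genes. Without replicate 2 on 20-kPa viscoelastic gels, the library where all tested members peaked, 24 of 45 were positive and the median was 0.042. The calls then were Ifitm2 and Ifitm3 higher and Rsad2 and Cmpk2 lower, where 1973 of 14724 tested genes were called higher and 1720 lower. Without replicate 1 on 20-kPa elastic gels, the library with the high members there, 13 were called higher and 0 lower, with a median of 0.48. That fit called 2276 of 14734 tested genes higher and 2492 lower. Members called higher numbered 11 without 20-kPa viscoelastic replicate 3 (1931 of 14737 tested genes) and 9 without 2-kPa viscoelastic replicate 2 (2773 of 14711). They numbered 2 without 20-kPa elastic replicate 2 or 3 (1866 of 14727 and 1673 of 14731 tested genes). The groups did not overlap in 7 of 45 members, against 49.9% of all tested genes.

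Between 20 and 2 kPa on elastic gels, 3 members were higher at 20 kPa and 1 was lower, against 14% of all tested genes called (6.81% higher, 7.14% lower). Rsad2, Samhd1 and Ifit2 rose and Lgals3bp fell. At an unadjusted p under 0.05 there were 3 higher and 4 lower, against 28.7% of all tested genes. In all, 31 of 45 fold changes were negative, with a median of -0.11. Without 2-kPa elastic replicate 1, where the members were high, 24 were positive and the median was 0.023, and it was -0.228 without 20-kPa elastic replicate 1 and -0.185 without 2-kPa elastic replicate 2. Without 20-kPa elastic replicate 2 or 3 it was -0.064 and -0.035. On viscoelastic gels, 0 of 45 members were called between 20 and 2 kPa by edgeR or by DESeq2. DESeq2 called 484 of 14542 tested genes higher and 284 lower, and edgeR called 2.28% of them (1.58% higher, 0.695% lower). In edgeR 0 members had an unadjusted p under 0.05, against 19% of all tested genes. There 34 of 45 fold changes were positive with a median of 0.13, and without replicate 2 on 20-kPa viscoelastic gels 9 were positive with a median of -0.10. The median was 0.22 without 2-kPa viscoelastic replicate 2, 0.049 without replicate 3 of that gel and 0.24 without 20-kPa viscoelastic replicate 3. Groups did not overlap in 8 of 45 members on elastic gels (35.6% of all tested genes) and in 2 of 45 on viscoelastic gels (22.3%).

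Averaged over both stiffnesses, 7 members were higher on viscoelastic gels (Ifitm1, Ifitm2, Ifitm3, Ube2l6, Samhd1, Gbp2 and Ifi27) and Trim25 was lower, against 40% of all tested genes called (19.6% higher, 20.4% lower). With the offset for gene length in edgeR, the calls of Ifitm1, Gbp2 and Ifi27 were lost (adjusted p = 0.108, 0.112 and 0.131). The call of Gbp2 was lost in 8 of 21 alternatives, whereas those of Ifitm2, Ifitm3, Ube2l6 and Samhd1 were made under all 21. The test of whether the viscoelastic effect differed between 2 and 20 kPa called Samhd1 alone, lower, against 7.56% of all tested genes (4.45% higher, 3.12% lower). The higher side of this test had 0 calls by edgeR and 1 call, Lgals3bp, by DESeq2, which called 714 of 14542 tested genes higher. At an unadjusted p under 0.05 in edgeR there were 6 members higher and 3 lower, against 22.5% of all tested genes. The comparisons share their groups, so their fold changes are not independent of each other.

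**Figure D4:**
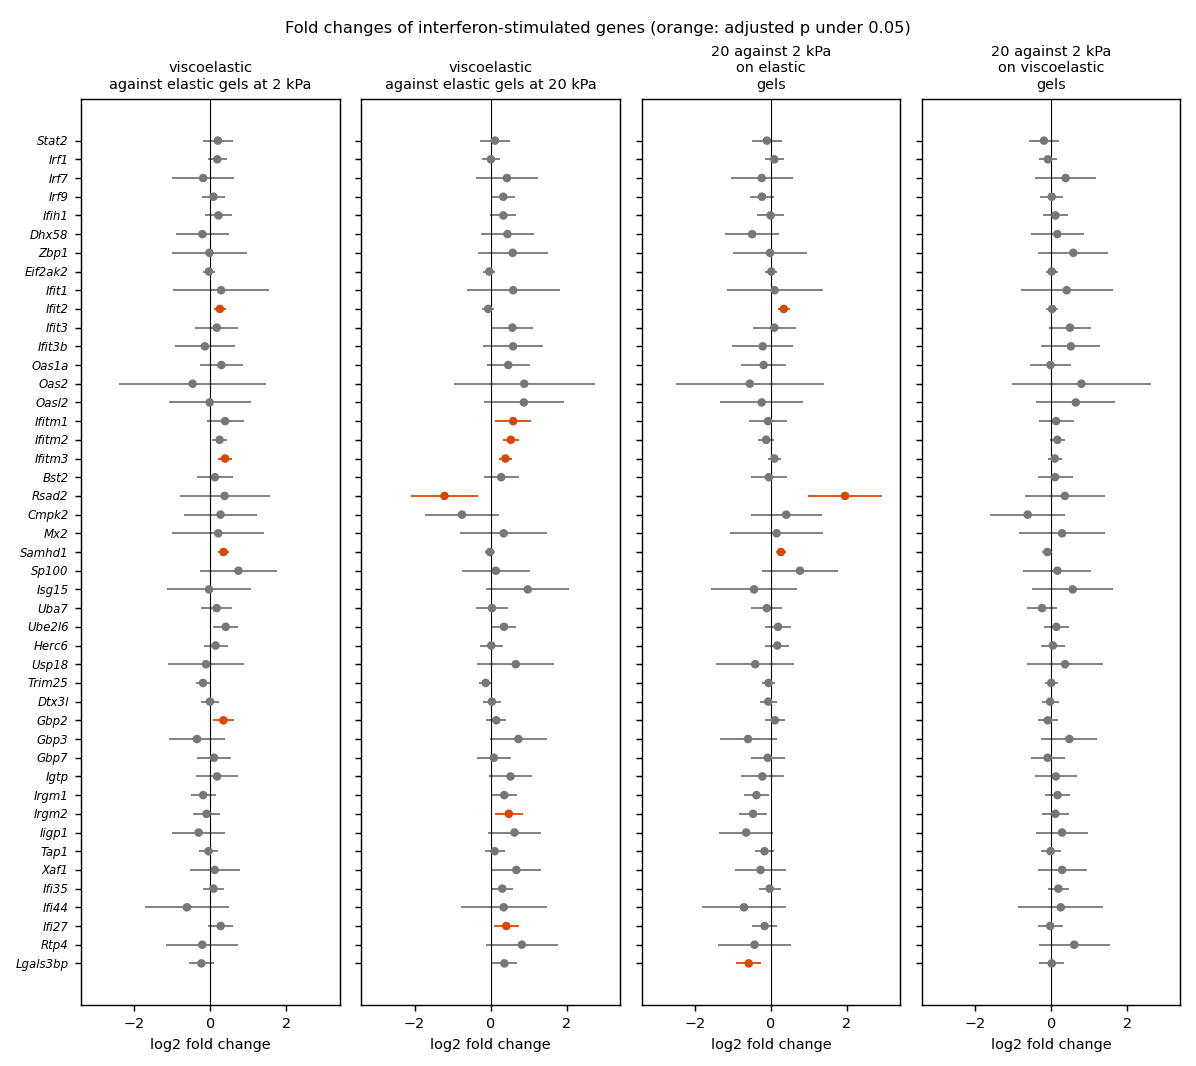
Points give edgeR log2 fold changes of the 45 tested members in the 4 comparisons of 2 gels, lines their 95% confidence intervals and orange an adjusted p under 0.05. Orange points number 4, 6, 4 and 0 from left to right. At 20 kPa 39 of 45 points lie right of 0.

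Of the restriction factors that block virus entry, release and replication, 9 were tested. At 2 kPa 2 of the 9 were higher on viscoelastic gels and 0 lower, against 19.9% of all tested genes called. At 20 kPa 3 were higher and 1 lower, against 33.5%. From 2 to 20 kPa on elastic gels 2 were higher and 0 lower, against 14%. Ifitm3 (chromosome 7, 141009586-141010770, mm10) measured 190, 182 and 175 CPM on 2-kPa elastic and 234, 249 and 233 on 2-kPa viscoelastic gels. At 20 kPa it measured 221, 187 and 175 CPM on elastic and 248, 272 and 244 on viscoelastic gels. Every viscoelastic library lay above every elastic library at both stiffnesses. Ifitm3 rose by 0.39 ± 0.08 (log2, SE) at 2 kPa (adjusted p = 0.00362) and by as much at 20 kPa (adjusted p = 0.00187). With an offset for gene length the changes were 0.25 and 0.15, and the call at 20 kPa was lost (adjusted p = 0.161). The adjusted p at 20 kPa ranged from 4.94e-05 to 0.161 over 22 alternatives.

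Ifitm2 (chromosome 7, 140954837-140955987), its close relative, measured 138, 136 and 128 CPM on 2-kPa elastic and 147, 158 and 170 on 2-kPa viscoelastic gels. At 20 kPa the values were 141, 121 and 105 on elastic and 175, 186 and 170 on viscoelastic gels. The groups did not overlap at either stiffness, yet at 2 kPa the difference of 0.24 did not pass (adjusted p = 0.0671). At 20 kPa Ifitm2 rose by 0.53 ± 0.09 (adjusted p = 0.000551), which all 22 alternatives called, with 0.29 under the offset for gene length. Ifitm1, the member of the trio with the fewest counts, had means of 1.17 ± 0.228 CPM on elastic and 1.76 ± 0.421 on viscoelastic gels at 20 kPa (SD, n = 3), and rose by 0.59 ± 0.21 (adjusted p = 0.0403). Its call was lost without 2-kPa elastic replicate 3, 20-kPa elastic replicate 2 or 3, or 20-kPa viscoelastic replicate 2 or 3, and with the offset for gene length, where the change was 0.38, and with the 6 libraries compared fitted alone (adjusted p up to 0.210).

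**Figure D5:**
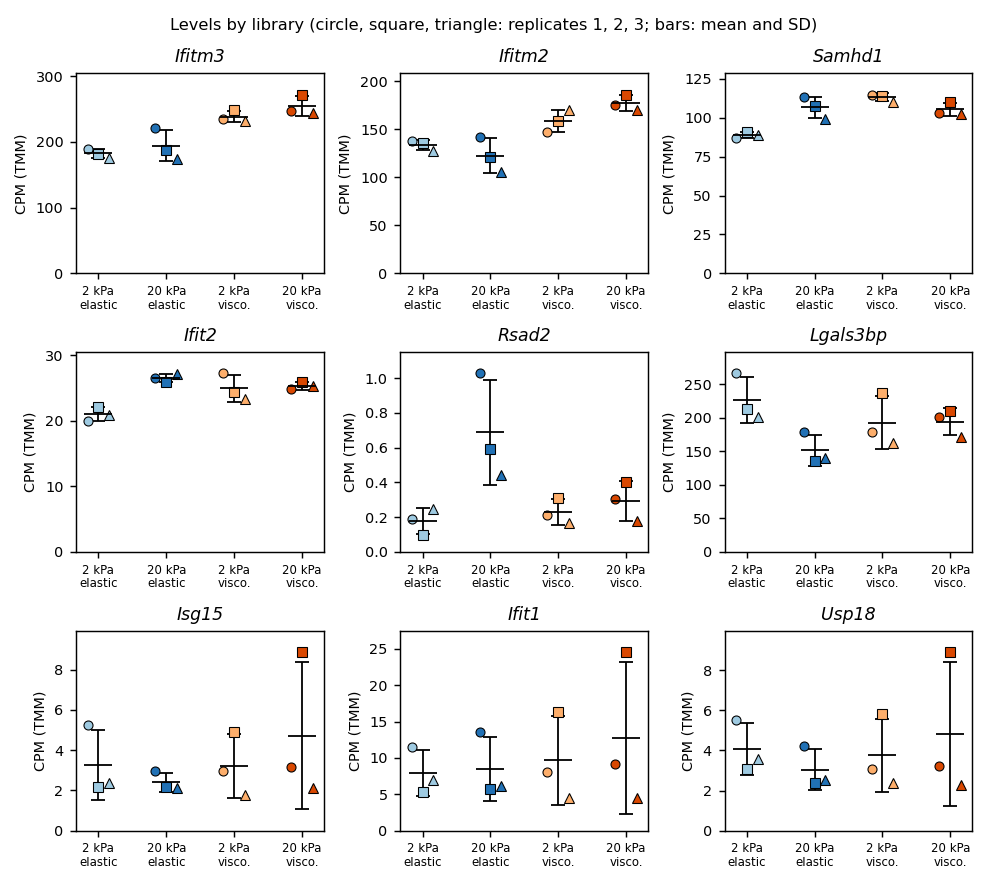
Points give CPM in each library for 9 members, and bars the mean and SD of each gel. In the top row (Ifitm3, Ifitm2, Samhd1) replicates lie close together, whereas in the bottom row (Isg15, Ifit1, Usp18) 1 replicate per gel stands above the others, up to 8.88, 24.6 and 8.92 CPM.

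Samhd1 encodes an enzyme that breaks down deoxynucleotides and so starves reverse transcription. It measured 86.8, 91.1 and 89.0 CPM on 2-kPa elastic gels, and every other library was higher. The values were 113, 108 and 99.5 on 20-kPa elastic, 115, 114 and 110 on 2-kPa viscoelastic, and 103, 110 and 103 on 20-kPa viscoelastic gels. Samhd1 rose by 0.35 ± 0.06 from elastic to viscoelastic gels at 2 kPa (adjusted p = 0.00101) and by 0.26 ± 0.06 from 2 to 20 kPa on elastic gels (adjusted p = 0.00760). Both calls were made under all 22 alternatives. At 20 kPa the difference between gel types was -0.02, with a 95% interval from -0.15 to 0.11 (adjusted p = 0.825). The difference between the 2 viscoelastic effects was -0.37 ± 0.08 (adjusted p = 0.0132), which was also called without each library in turn.

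Rsad2, or viperin, makes a nucleotide that ends viral RNA chains, and it was rare. It had 8, 4 and 9 counts on 2-kPa elastic and 44, 26 and 18 on 20-kPa elastic gels. On viscoelastic gels it had 9, 13 and 7 counts at 2 kPa and 13, 17 and 7 at 20 kPa. The 20-kPa elastic libraries were thus the 3 highest, between 0.444 and 1.03 CPM, and all others were at 0.400 CPM or lower. Rsad2 rose 3.86-fold from 2 to 20 kPa on elastic gels (log2 1.95 ± 0.42, adjusted p = 0.00701), and the change was between 1.56 and 2.23 over the 21 alternatives that tested it, all of which called it. It was lower at 20 kPa if the gel was viscoelastic (log2 -1.22 ± 0.38, adjusted p = 0.0226). That call was lost without 20-kPa elastic replicate 1 or without 20-kPa viscoelastic replicate 1 or 3 (adjusted p up to 0.118). Cmpk2, the neighbouring gene whose product feeds Rsad2 with its substrate, measured 0.571, 0.196 and 0.329 CPM on 2-kPa elastic and 0.584, 0.433 and 0.444 on 20-kPa elastic gels. It was not called in any comparison, with a log2 fold change of 0.40 ± 0.41 between these groups.

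Mx1, an antiviral GTPase that is known to be defective in many laboratory mouse strains, was not tested. It had 1, 1 and 0 counts on 2-kPa elastic, 15, 7 and 3 on 20-kPa elastic, 2, 5 and 3 on 2-kPa viscoelastic, and 1, 5 and 0 on 20-kPa viscoelastic gels. Its relative Mx2 had 9 to 47 counts and Sp100, a nuclear body protein, 10 to 48, and neither was called in a comparison. The virion tether Bst2 was at 9.58 to 17.6 CPM in all libraries and was not called either.

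Among the IFIT genes Ifit2 went its own way. It measured 20.0, 22.1 and 21.0 CPM on 2-kPa elastic, 26.6, 25.9 and 27.2 on 20-kPa elastic, 27.3, 24.3 and 23.3 on 2-kPa viscoelastic, and 24.8, 26.0 and 25.4 on 20-kPa viscoelastic gels. As for Samhd1, the 2-kPa elastic libraries were the 3 lowest of the 12. Ifit2 rose by 0.34 ± 0.07 from 2 to 20 kPa on elastic gels (adjusted p = 0.00387), which all 22 alternatives called. It rose by 0.25 ± 0.07 from elastic to viscoelastic gels at 2 kPa (adjusted p = 0.0166), a call lost without 2-kPa elastic replicate 1 or 2-kPa viscoelastic replicate 1 (adjusted p up to 0.0860). Ifit1, Ifit3 and Ifit3b were called in no comparison, and the standard errors of their fold changes were 0.24 to 0.55 against 0.07 for Ifit2.

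Signal transducers and transcription factors were not called in any comparison. Stat2, the highest of them per kilobase of exon with 6.61 CPM per kb, measured 41.9, 33.1 and 40.2 CPM on 2-kPa elastic and 42.7, 33.7 and 30.5 on 20-kPa elastic gels. On viscoelastic gels it measured 38.5, 53.5 and 40.0 CPM at 2 kPa and 32.7, 49.8 and 33.1 at 20 kPa, so that all groups overlapped. Irf9, its partner in ISGF3, and Irf1 and Irf7 lay between 24.2 and 39.9, 14.1 and 20.1, and 1.72 and 5.84 CPM. Irf7, the factor that amplifies interferon production, had the widest spread of the 4, with a biological coefficient of variation of 28.9%.

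The sensors of foreign nucleic acid were called in no comparison. Eif2ak2, or PKR, which halts translation on double-stranded RNA, was among the steadiest members with 59.4, 53.7 and 51.4 CPM on 2-kPa elastic, 56.0, 54.8 and 54.7 on 20-kPa elastic, 57.1, 52.8 and 50.4 on 2-kPa viscoelastic, and 51.0, 58.1 and 52.6 on 20-kPa viscoelastic gels. Its fold changes lay between -0.04 and 0.01 on the log2 scale. The RNA helicases Ifih1 and Dhx58 ranged from 8.42 to 15.3 and from 2.33 to 6.12 CPM, and Zbp1, a sensor of Z-form nucleic acid, from 0.584 to 2.07. The OAS enzymes, which make the messenger that activates RNase L, and their relative Oasl2 were not called either. Oasl2 measured 5.90, 2.45 and 3.05 CPM, then 4.72, 2.53 and 2.42 on the elastic gels of 2 and 20 kPa, and 2.97, 5.33 and 3.03, then 3.25, 11.3 and 3.16 on the viscoelastic gels. Its log2 fold change at 20 kPa was 0.87 ± 0.46 (adjusted p = 0.155), with 11.3 CPM in 1 library and at most 3.25 in its sisters.

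In the ISG15 system no gene was called in a comparison of 2 gels. Trim25, a ubiquitin ligase that also joins the signalling of the RNA helicase RIG-I, was its highest member per length. It measured 71.6, 69.8 and 58.8 CPM on 2-kPa elastic, 65.9, 64.0 and 61.8 on 20-kPa elastic, 63.6, 54.3 and 57.1 on 2-kPa viscoelastic, and 57.4, 61.5 and 56.2 on 20-kPa viscoelastic gels. Averaged over both stiffnesses it fell by 0.16 on viscoelastic gels (SE 0.05, adjusted p = 0.0269), a call lost in 12 of 21 alternatives (adjusted p 0.00501 to 0.0905), among them total counts alone, the offset for gene length and 8 of the 12 fits that left out a library. Ube2l6, the conjugating enzyme for Isg15, rose by 0.38 ± 0.10 on viscoelastic gels over both stiffnesses (adjusted p = 0.00800), a call made under all 21 alternatives. Its means were 5.34 ± 0.534 and 6.09 ± 1.21 CPM on elastic gels of 2 and 20 kPa and 7.08 ± 0.286 and 7.76 ± 1.31 on viscoelastic gels (SD, n = 3). Uba7, the activating enzyme, and Herc6, the ligase of the same chain, were not called, with 3.67 to 6.03 and 5.24 to 8.05 CPM.

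Of 7 interferon-inducible GTPases, which coat and break up the vacuoles of intracellular parasites, 2 were called. Gbp2 measured 15.2, 14.2 and 14.9 CPM on 2-kPa elastic and 16.7, 20.9 and 18.6 on 2-kPa viscoelastic gels, against 18.8, 14.2 and 14.6, and 16.9, 20.2 and 15.7 at 20 kPa. It rose by 0.34 ± 0.12 at 2 kPa (adjusted p = 0.0497), the weakest of the calls. It was lost in 12 of 22 alternatives (adjusted p 0.00809 to 0.163), which include the offset for gene length (adjusted p = 0.0809), the replicate number as a block (adjusted p = 0.0650) and leaving out any 2-kPa elastic library, 2-kPa viscoelastic replicate 2 or 3, 20-kPa elastic replicate 2, or 20-kPa viscoelastic replicate 1 or 3. Irgm2 measured 25.7, 20.9 and 20.4 CPM on 2-kPa elastic and 19.5, 15.1 and 13.7 on 20-kPa elastic gels, and 20.4, 23.1 and 19.1, then 21.1, 28.6 and 17.7 on viscoelastic gels. At 20 kPa it rose by 0.48 ± 0.16 on viscoelastic gels (adjusted p = 0.0313), although 1 viscoelastic library lay below the highest elastic one. The call was lost without 20-kPa elastic replicate 2 or 3 or without 20-kPa viscoelastic replicate 2, where the change was as low as 0.27, and when the 6 libraries compared were fitted alone. All 7 GTPases had positive fold changes at 20 kPa and 6 of 7 had negative ones from 2 to 20 kPa on elastic gels, of which 1 and 0 were called, against 33.5% and 14% of all tested genes. Over all tested genes 52.2% of fold changes at 20 kPa were positive, and all 7 GTPases peaked in replicate 2 on 20-kPa viscoelastic gels, without which 24 rather than 39 of the 45 members were positive.

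Tap1, which carries peptides to MHC class I, was not called in any comparison. It measured 22.9, 20.5 and 20.3 CPM on 2-kPa elastic, 19.8, 18.4 and 18.5 on 20-kPa elastic, 18.5, 24.9 and 18.2 on 2-kPa viscoelastic, and 19.5, 23.3 and 18.2 on 20-kPa viscoelastic gels.

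Of the remaining interferon-induced proteins, Lgals3bp was the clearest. It measured 266, 213 and 202 CPM on 2-kPa elastic and 178, 136 and 140 on 20-kPa elastic gels, with no overlap, and 178, 237 and 162, then 201, 211 and 171 on viscoelastic gels. It fell by 0.59 on the log2 scale from 2 to 20 kPa on elastic gels (SE 0.14, adjusted p = 0.0136). The call was lost without 2-kPa elastic replicate 1 or 20-kPa elastic replicate 2 or 3 (adjusted p up to 0.0771). Ifi27 measured 81.5, 65.2 and 71.5 CPM on 2-kPa elastic, 75.8, 61.5 and 57.0 on 20-kPa elastic, 83.0, 111 and 69.7 on 2-kPa viscoelastic, and 85.5, 94.0 and 78.9 on 20-kPa viscoelastic gels. At 20 kPa the gels did not overlap, and Ifi27 rose by 0.41 ± 0.14 (adjusted p = 0.0374). This call was lost with the offset for gene length (0.22, adjusted p = 0.240) and without 20-kPa elastic replicate 2 or 3 or 20-kPa viscoelastic replicate 1 or 2. Xaf1, Rtp4, Ifi44 and Ifi35 were not called and followed the shared pattern between libraries, up to 14.6, 19.0, 7.69 and 12 CPM.

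Around the members, 62 further genes of interferon signalling were in the table and 46 of them were tested. No interferon gene was tested: Ifnb1 had a single count in the 12 libraries, and none of the 11 listed exceeded 3 counts in any library. At 2 kPa 2 of the 46 were higher on viscoelastic gels and 3 lower, and at 20 kPa 7 were higher and 6 lower, or 10.9% and 28.3% in either direction, against 19.9% and 33.5% of all tested genes. From 2 to 20 kPa 5 fell and 0 rose on elastic gels by edgeR (10 and 4 at an unadjusted p under 0.05), against 14% of all tested genes called, and 0 changed on viscoelastic gels, where 8 of 46 had an unadjusted p under 0.05, as had 19% of all tested genes. The shares called were thus below those of all tested genes in each of these comparisons. Averaged over both stiffnesses the receptor chains moved apart on viscoelastic gels, with Ifnar2 rising by 0.26 ± 0.06 (adjusted p = 0.00513) and Ifnar1 falling by 0.14 (SE 0.04, adjusted p = 0.00491), and both calls were made under all 21 alternatives. The repressor Irf2 rose by 0.24 ± 0.04 (adjusted p = 0.000672), likewise under all 21.

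Of 13 genes of MHC class I presentation and the immunoproteasome, 4 were higher and 1 lower on viscoelastic gels at 20 kPa. Their median log2 fold change was 0.19, and 33.5% of all tested genes were called there. At 2 kPa 1 was higher and 2 were lower, against 19.9%. From 2 to 20 kPa on elastic gels 0 were higher and 3 lower, against 14%. Psme1 and Psme2, the chains of the proteasome activator PA28, rose by 0.59 ± 0.07 and 0.39 ± 0.06 on viscoelastic gels at 20 kPa (adjusted p = 0.000105 and 0.000391). Psmb9, a subunit of the immunoproteasome, rested on 21 to 64 counts. It measured 0.700, 0.479 and 0.518 CPM on 20-kPa elastic and 1.38, 1.51 and 0.978 on 20-kPa viscoelastic gels, and rose by 1.19 ± 0.23 (adjusted p = 0.00133). Each of these calls was made in every alternative that tested the gene. Tapbp, which loads peptides on MHC class I, measured 221, 193 and 197 CPM on 2-kPa elastic, 157, 135 and 135 on 20-kPa elastic and 137, 182 and 149 on 2-kPa viscoelastic gels. It fell by 0.52 from 2 to 20 kPa on elastic gels (SE 0.10, adjusted p = 0.00313), under all 22 alternatives too. Erap1, a peptidase that trims peptides for MHC class I, fell by 0.29 from elastic to viscoelastic gels at 2 kPa (SE 0.05, adjusted p = 0.00209), again under all 22.

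The chemokine Cxcl10, a classical interferon target, measured 0.786, 0.637 and 0.549 CPM on 2-kPa elastic and 1.59, 1.00 and 1.28 on 20-kPa elastic gels. On viscoelastic gels it measured 0.608, 1.25 and 0.310 CPM at 2 kPa and 0.538, 0.801 and 0.226 at 20 kPa. It was lower at 20 kPa if the gel was viscoelastic (log2 -1.29 ± 0.41, adjusted p = 0.0266), on 9 to 68 counts. That call was lost without 20-kPa elastic replicate 1 or 3 or without 20-kPa viscoelastic replicate 1 or 3 (adjusted p up to 0.107). Socs1, an inhibitor of the JAK kinases, fell by 0.37 from 2 to 20 kPa on elastic gels (SE 0.09, adjusted p = 0.0160), a call lost without 2-kPa elastic replicate 1 or 2 or 20-kPa elastic replicate 2 (adjusted p up to 0.0827).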

How the data were processed

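RNA-seq was performed on 12 libraries of mouse ear fibroblasts, in 4 groups of 3 taken from the sample labels. The authors trimmed reads with Trimmomatic, aligned them to mm10 with STAR, used featureCounts with GENCODE genes and deposited raw counts per gene. The annotation release, strand setting and handling of reads with several matches are not given in the sources used here. Library totals ran from 36626221 to 43612804 counts, so that low counts limit only the rarest members.

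From the counts, genes were kept with edgeR's filterByExpr (minimum count 10, minimum total 15), scaled by TMM and fitted with 1 coefficient per group over all 12 libraries. Comparisons were tested with the quasi-likelihood F test in edgeR 4.0.16 (limma 3.58.1, R 4.3.3), with Benjamini-Hochberg adjustment over 14542 genes and a threshold of 0.05. Log2 CPM used a prior count of 2. The scripts were tested on simulated data. P-values set the difference between groups against the spread between these libraries. Gene positions and exon lengths came from GENCODE vM21 on mm10, and promoter windows from RefSeq on GRCm38.p6.

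Alternatives were DESeq2 size factors, total counts alone, no filter, a minimum count of 50, the DESeq2 1.42.0 Wald test, a threshold of 0.01, the replicate number as a block, an offset for gene length, both together, the 6 libraries compared alone, and each library left out in turn. The medians over the members under each setting, and the pattern of highest libraries under other scalings, were added after seeing the data.

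The members, gene lists and tests were chosen with earlier results of these data known. Named were the members called in a comparison and those that describe each role. Isg15, Usp18, Ifit1, Xaf1, Rtp4 and others that show the shared variation were chosen after their values were seen. One pathway gene is not reported here.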

Additional observations from a re-analysis of the deposited data

Results flagged for a closer look

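For 5 genes of the members and the pathway list, the response to stiffness differed between gel types by the interaction test in edgeR. These were 1 of 45 members (2.22%) and 4 of 46 pathway genes (8.70%), against 7.56% of all tested genes. With the elastic change from 2 to 20 kPa subtracted from the viscoelastic one, the difference was -0.365 (log2) for Samhd1 (adjusted p = 0.0132), the lone member among them. It was 0.577 for Tapbp (adjusted p = 0.0211), 0.468 for Socs1 (adjusted p = 0.0412), 0.295 for the corepressor gene Irf2bp1 (adjusted p = 0.0341) and 1.18 for Psmb9 (adjusted p = 0.0337).

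Samhd1 rose by 0.26 with stiffness on elastic gels and changed by -0.10 on viscoelastic gels (adjusted p = 0.359). Tapbp, Socs1 and Psmb9 fell on elastic gels by 0.52, 0.37 and 0.79, and their values on viscoelastic gels were 0.06, 0.10 and 0.39 (adjusted p = 0.797, 0.597 and 0.329). The fall of Psmb9 was lost in 8 of 21 alternatives (adjusted p up to 0.129), among them the fits without any 2-kPa elastic library or without 20-kPa elastic replicate 2 or 3, and that of Socs1 without 2-kPa elastic replicate 1 or 2 or 20-kPa elastic replicate 2. The interaction of Tapbp was lost without 2-kPa elastic replicate 1 or 20-kPa elastic replicate 2 or 3, and those of Socs1, Irf2bp1 and Psmb9 in 14 of 21, 15 of 21 and 11 of 20 alternatives, most of which left out a library. That of Samhd1 was called without each library in turn.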

How the results depend on the processing

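No direction of a called member reversed in any alternative. The count of members higher on viscoelastic gels at 2 kPa, 4, became 7 with every gene kept, 2 at a threshold of 0.01 and 2 to 6 without single libraries, and 0 lower became 0 to 1. At 20 kPa, 5 higher became 10 with total counts alone, 20 with every gene kept, 2 at 0.01, 2 with the length offset and 2 to 13 without single libraries. Over all tested genes, those higher at 20 kPa numbered 2937 of 14542 with total counts alone and 2384 of 23149 with every gene kept. They numbered 1434 at 0.01, 2010 with the length offset and 1673 to 2773 without single libraries. The 1 member lower at 20 kPa, Rsad2, became 0 at a minimum count of 50, where Rsad2 with at most 44 counts was not tested. It also became 0 at 0.01, and the count was 0 to 2 without single libraries. From 2 to 20 kPa on elastic gels, 1 lower became 5 with every gene kept, 2 by DESeq2, 0 at 0.01, 3 with the 6 libraries alone and 0 to 3 without single libraries. Over both stiffnesses, 7 higher became 12 with every gene kept, 4 at 0.01 and 5 to 10 without single libraries, and 1 lower became 0 with total counts, at 0.01 and with the length offset, and 0 to 1. For the interaction, 0 higher became 5 with every gene kept, 1 by DESeq2 and 0 to 2, and 1 lower became 2 with size factors, total counts, a minimum of 50, DESeq2 or the length offset, 0 at 0.01 and 1 to 2. Pathway genes called in at least 1 of the 4 comparisons of gels, 17, became 6 at 0.01 and 9 to 22. The matching share of all tested genes was not computed under any setting, so this count describes the list alone. Apart from Rsad2 at a minimum count of 50, the cause of these changes in the counts of members and pathway genes was not tested. DESeq2 called 1066 of 14542 tested genes lower from 2 to 20 kPa on elastic gels. With every gene kept, 1383 of 23149 genes were higher at 2 kPa and 1122 were lower from 2 to 20 kPa on elastic gels. That setting also called 2798 genes higher over both stiffnesses and 771 higher for the interaction. The 3 members higher on elastic gels and the 0 member calls on viscoelastic gels stayed within 1.5 times in all.

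Same-numbered replicates had correlations of deviations over all tested genes from -0.16 to 0.31, not over 0.1 for every pair in any comparison, so the numbers were not taken as pairing. Over the 45 members alone they ran from -0.608 to 0.746, and between the viscoelastic gels all 3 were over 0.1 (0.292, 0.746 and 0.585), where the block gave 0 calls as well. With the replicate block, members higher at 20 kPa numbered 9 and those lower from 2 to 20 kPa on elastic gels 2, and no other count of members moved by over 1.5 times, although the call of Gbp2 at 2 kPa was lost (adjusted p = 0.0650) and so was that of Psmb9 from 2 to 20 kPa on elastic gels (adjusted p = 0.0552). Over all tested genes the block called 2322 of 14542 higher at 20 kPa and 893 lower from 2 to 20 kPa on elastic gels. With block and length offset together, members lower from 2 to 20 kPa on elastic gels numbered 2, those lower over both stiffnesses 0 and pathway calls 11.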

Other observations

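Tested genes above a low floor of mean CPM were searched, outside the members, the pathway list and the cell type markers. Among these, the genes whose deviations from the group means were most like the members' mean were Slfn8 (r = 0.986), Parp9 (r = 0.960), Ifi204 (r = 0.958), Gm4951 (r = 0.953), Ifi203 (r = 0.944), Apol9a (r = 0.940), Sema3b (r = 0.937), Lgals9 (r = 0.932), Phf11d (r = 0.930) and Ifi47 (r = 0.924), over 12 libraries. These values are a description, since the libraries share the same high members. Parp9 encodes the partner of the ligase Dtx3l, whose own r was 0.271. Slfn8 and Apol9a were at 4.21 and 1.30 CPM on average, and Parp9 at 30.2.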
